A study of Mus musculus with 46 samples.

Results

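RXR and CEBPa binding was compared within the livers of 4 vehicle-injected mice, C1 to C4, collected 27 h after the injection. The material is 8 peak lists, 1 RXR list and 1 CEBPa list from each liver, out of 46 lists in the series. Lists were taken by their labelled factor, treatment, time and liver. No measured value entered that rule, though the choice was made with earlier results of these data known. The mice were wild-type CD-1 males, labelled as 8 weeks old, that received DMSO in corn oil and no CAR ligand. In the same series other mice received TCPOBOP, an agonist of the nuclear receptor CAR, at 3 mg/kg. The lists of TCPOBOP livers D1 to D4 (27 h, 8 weeks old) and of vehicle and TCPOBOP livers of 3 h were used to see whether regions found in C1 to C4 recurred in other animals. The D1 to D4 lists also served to set the differences between the factors beside those after TCPOBOP. At 3 h the RXR mice were labelled as 8 weeks old, and the mice of the CEBPa, CEBPb and input libraries as 7 weeks old. The CEBPb lists of C1 to C4 themselves gave a further reading of the same tissue. Each list comes from chromatin immunoprecipitation and sequencing of 1 liver, so all cell types of the tissue contribute to it. The antibody to RXRa (RXR below) was used for one set of libraries and the antibody to CEBPa for the other.

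RXRa is a nuclear receptor that binds DNA mostly as the partner of another receptor, among them CAR, PXR, PPARa, LXR and FXR, and through these pairs it takes part in the control of drug, lipid and bile acid metabolism in hepatocytes. CEBPa is a basic leucine zipper factor that binds as a dimer to a different kind of sequence and helps to keep hepatocytes differentiated, with targets in glucose metabolism and in plasma protein production. CEBPb is its close relative, recognises much the same sequences and can pair with it. Both RXRa and CEBPa are abundant in hepatocytes, and sites bound by both are known from liver enhancers.

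Positions refer to mm9, an assembly of the mouse genome, and count from 1. The reference tables used here are on a later assembly, so regions are given by position only, and genes, markers of liver cell types, promoters and sequences were not analysed here. A peak has a start and an end and no height or summit, and the read depth behind each list is unknown. A missing peak therefore means no call at an unknown depth, not an absence of binding. The labels place the RXR libraries on lane 8 and the CEBPa libraries on lane 7 of the same flow cell, so a difference between the factors, between their antibodies and between the lanes cannot be told apart. The 4 input controls without immunoprecipitation, all from 3 h livers, held 7, 42, 224 and 1480 peaks.

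The lists of both factors were of similar length. RXR had 26125 peaks in C1, 31499 in C2, 27901 in C3 and 36148 in C4. CEBPa had 26145 peaks in C1, 35193 in C2, 35663 in C3 and 30936 in C4. The RXR list was the longer one in C4 only, and in C1 the lists differed by less than in any other liver. The mean difference was -0.07 on the log2 scale (exact permutation test over 70 assignments, two-sided p = 0.714; 8 tests were made in this family, and the adjusted p was 0.714). A difference in list length thus lay within the spread between livers, which has to be kept in mind for the sharing values below because those depend on the length of the other list.

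Merging every overlap of 1 bp or more among the peaks of the 8 lists gave 86424 regions. Of these, 32625 (37.7%) held an RXR peak in at least 1 liver and no CEBPa peak in any liver, and 38445 (44.5%) held CEBPa and no RXR. Both factors were called at 15354 regions (17.8%). In each of those 15354 regions an RXR peak and a CEBPa peak overlapped directly, and in 14063 (91.6%) they did so within 1 liver. Most bound regions of these livers were thus called for one factor and not for the other.

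Within single livers the picture was the same. Liver C1 had 6912 shared regions of 45312 (15.3%), C2 had 9377 of 57225 (16.4%), C3 had 7663 of 55829 (13.7%) and C4 had 10112 of 56861 (17.8%). The highest share was in C4, which had the longest RXR list, and the lowest in C3. RXR-only regions outnumbered CEBPa-only regions in C4, with 26007 against 20742. The order was the opposite in C2, with 22103 against 25745, and in C3, with 20218 against 27948, while in C1 the 2 numbers were 19195 and 19205. With the lists of each liver cut to the length of the shorter one by keeping the widest peaks, the shared part was 14.1% to 17.5%. With peaks kept evenly in genome order it was 12.05% to 16.4%.

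Regions called in every liver were set apart from regions called in a few. RXR was called in 4 of 4 livers and CEBPa in none at 9639 regions (11.2% of all), called RXR-specific from here on. CEBPa was called in 4 of 4 livers and RXR in none at 8491 regions (9.82%), called CEBPa-specific. Both factors were called in all 4 livers at 4679 regions (5.41%), called constant shared. These names stand for the counts of calls in C1 to C4, with the rule applied to the same lists, so the numbers are a description and were not tested.

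**Figure D1:**
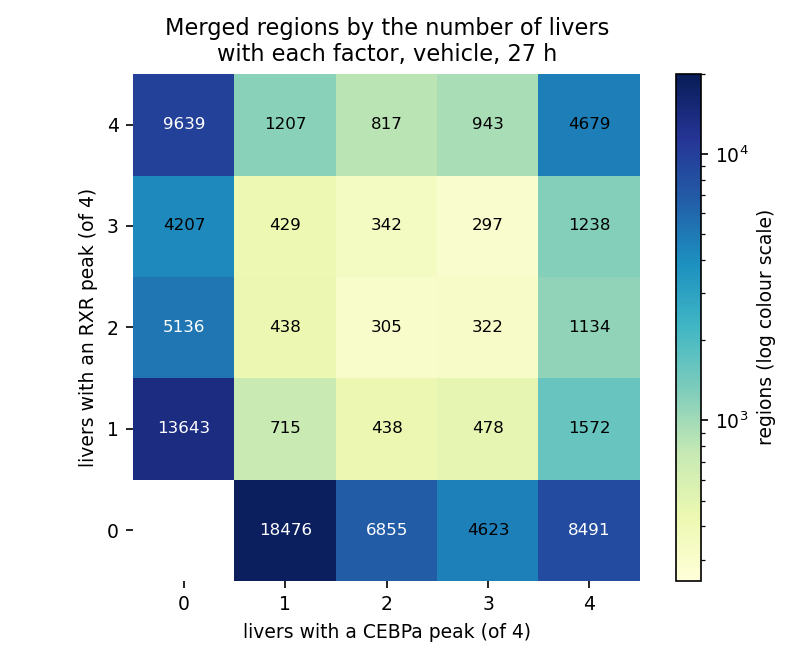
Number of merged regions by how many of the 4 vehicle livers had a CEBPa peak (horizontal axis) and an RXR peak (vertical axis), with colour on a log scale. The fullest cells are 18476 regions with CEBPa in 1 liver and no RXR and 13643 with RXR in 1 liver and no CEBPa; the corners hold 9639 (RXR in 4 livers, no CEBPa), 8491 (CEBPa in 4 livers, no RXR) and 4679 (both in 4 livers), and 297 had each factor in 3 livers.

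The inner cells of this grid, with each factor in 1 to 3 livers, held fewer regions than its edges and corners. Of 17285 regions with RXR in 4 livers, 55.8% had CEBPa in none and 27.1% had it in all 4, which leaves few in between. Of 17114 regions with CEBPa in 4 livers, 49.6% had RXR in none and 27.3% had it in all 4. Regions called in a single liver for one factor were mostly free of the other: of 16846 regions with RXR in 1 liver, 81.0% had no CEBPa, and of 21265 with CEBPa in 1 liver, 86.9% had no RXR. A region that was called constantly for one factor thus had the other factor more often than a region called once did. Regions called constantly were also wider. With RXR and no CEBPa the median width was 491 bp for 4 livers and 225 bp for 1. With CEBPa and no RXR it was 345 and 213 bp. The part of width in this order was not tested.

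Lists of one factor from different livers resembled each other far more than the lists of both factors from one liver did. The Jaccard index is the share of the regions of 2 lists that both lists hold. It was 0.537 to 0.590 for the 6 pairs of RXR lists and 0.507 to 0.537 for the 6 pairs of CEBPa lists. For RXR and CEBPa it was 0.148 to 0.186 in the 4 pairs from the same liver and 0.149 to 0.178 in the 12 pairs from different livers. The same-liver pairs did not stand apart from the other pairs of RXR and CEBPa lists, with means of 0.168 and 0.165.

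A peak was then called shared when a peak of the other factor in the same liver overlapped it by at least 1 bp. In C1, C2, C3 and C4, 26.5%, 29.8%, 27.5% and 28.1% of RXR peaks were shared. Of CEBPa peaks, 26.5%, 26.8%, 21.6% and 33.0% were shared in the same order of livers. The CEBPa values span those of RXR on both sides. With the other factor's list moved by 100 kb, only 1.11% to 1.57% of RXR peaks and 1.19% to 1.70% of CEBPa peaks were overlapped, so sharing exceeded this background in all 8 lists. The shared part was 28.0% ± 1.38 for RXR and 27.0% ± 4.64 for CEBPa (SD, n = 4 each), a difference of 0.993 percentage points (exact permutation, two-sided p = 0.714, adjusted p = 0.714).

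List lengths differed beside these shares. CEBPa in C3, the lowest value, had the longest CEBPa list beside one of the shorter RXR lists, and CEBPa in C4, the highest, stood beside the longest RXR list. The RXR shares did not order this way, with 27.5% in C3 beside the longest CEBPa list and 28.1% in C4 beside a shorter one. With lists of equal length keeping the widest peaks, RXR peaks were shared at 26.5%, 28.5%, 24.8% and 29.9% and CEBPa peaks at 26.6%, 28.6%, 24.9% and 30.1% in C1 to C4. The shares of both factors then nearly coincided in every liver, as equal lengths bring about when nearly all overlaps join 1 peak to 1 peak. C3 had the lowest and C4 the highest share under this cut too.

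The width of peaks differed between the factors in every liver. The median RXR peak was 301 bp wide in C1, 316 bp in C2, 309 bp in C3 and 336 bp in C4. The median CEBPa peak was 261, 265, 266 and 277 bp wide in the same livers. The groups did not overlap, since the widest CEBPa median lay below the narrowest RXR median. The mean of the medians was 315.5 ± 14.98 bp for RXR and 267.25 ± 6.85 bp for CEBPa (SD, n = 4 each), a difference of 48.25 bp with RXR wider in 4 of 4 livers. The exact permutation test gave p = 0.0286 (two-sided), the smallest that 70 assignments allow, and an adjusted p of 0.0762, which misses 0.05. Tested within livers the exact p was 0.125, the smallest that 4 livers allow.

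The wide end of the lists differed more than the middle. RXR peaks over 500 bp made up 12.01% of the list in C1, 15.5% in C2, 14.2% in C3 and 20.3% in C4, against 2.78%, 3.43%, 3.08% and 3.73% for CEBPa. Peaks over 1000 bp numbered 98 to 364 per RXR list and 9 to 18 per CEBPa list. The lists were also apart below the median, with a 25th percentile of 235 to 252 bp for RXR and 219 to 227 bp for CEBPa, and with 39.8% to 49.4% of RXR and 60.7% to 69.2% of CEBPa peaks under 300 bp. Only at the narrowest end were they close, with a 5th percentile of 195 to 199 bp for RXR and 189 to 195 bp for CEBPa. C4 had both the longest RXR list and the widest RXR peaks.

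**Figure D2:**
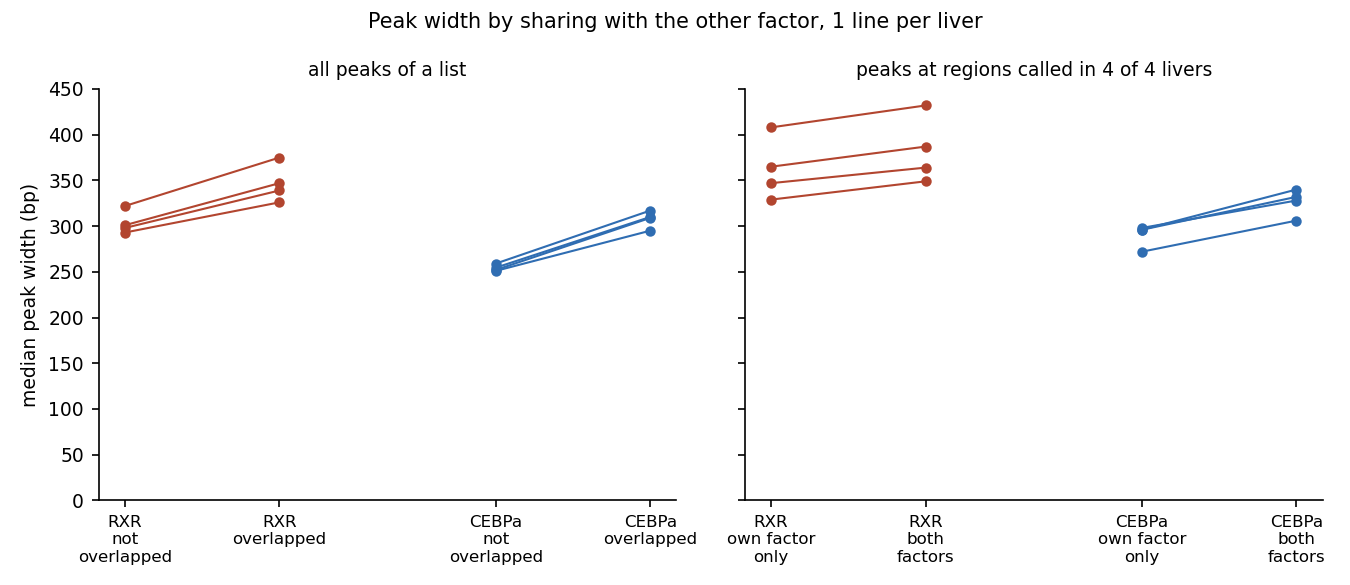
Median peak width in bp for peaks that a peak of the other factor in the same liver overlaps or does not (left), and for peaks at regions called in 4 of 4 livers for their own factor only or for both factors (right), 1 line per liver. All 16 lines go up from left to right, from 293 to 322 bp up to 326 to 375 bp for RXR and from 251 to 259 bp up to 295 to 317 bp for CEBPa in the left panel.

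Shared peaks were wider than unshared peaks in all 8 lists. Shared RXR peaks had median widths of 326, 347, 339 and 375 bp in C1 to C4, and unshared RXR peaks 293, 301, 298 and 322 bp. Shared CEBPa peaks had median widths of 295, 309, 310 and 317 bp, and unshared CEBPa peaks 251, 252, 254.5 and 259 bp. A wide peak is overlapped more easily than a narrow one, so part of such a difference is built into the count of overlaps. The difference was 43.25 ± 8.42 bp for RXR and 53.6 ± 6.50 bp for CEBPa (SD, n = 4 each). It was the larger for CEBPa in 4 of 4 livers, by 10.4 bp on average, and this missed the threshold (exact permutation, two-sided p = 0.0857, adjusted p = 0.152).

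The same order was seen among peaks at regions called in every liver. RXR peaks at RXR-specific regions had medians of 329, 365, 347 and 408 bp in C1 to C4, and at constant shared regions 349, 387, 364 and 432 bp. CEBPa peaks at CEBPa-specific regions had medians of 272, 296, 298 and 296 bp, and at constant shared regions 306, 332, 328 and 340 bp. The gap was 17 to 24 bp for RXR and 30 to 44 bp for CEBPa. Peaks at RXR-specific regions stood at the 58.8th to 65.8th width percentile of their own list (median per list), and those at CEBPa-specific regions at the 55.8th to 65.5th. Wide peaks recurred in all livers more often than narrow ones, so a rule that asks for a call in 4 of 4 livers favours such percentiles.

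**Figure D3:**
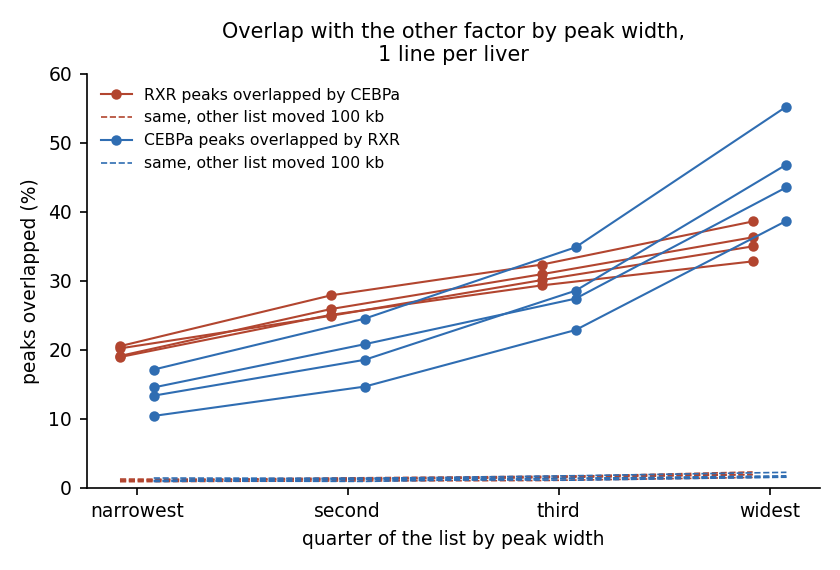
Share of peaks (%) overlapped by a peak of the other factor in the same liver, for each list divided by width into 4 groups of equal size, 1 line per liver, with dashed lines for the other factor's list moved by 100 kb. The share climbs with width in all 8 lists, to 32.8% to 38.6% for RXR and 38.7% to 55.2% for CEBPa in the widest group, while the moved lists stay between 0.889% and 2.295%.

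Each list was divided by width into 4 groups of equal size. From the narrowest to the widest group, RXR peaks were shared at 19.7%, 25.9%, 30.7% and 35.7% on average over the 4 livers. CEBPa peaks were shared at 13.9%, 19.6%, 28.4% and 46.1%. The climb was steeper for CEBPa, which began below RXR and ended above it in these means. The widest CEBPa peaks were shared at 38.7% in the lowest liver, and the widest RXR peaks at 38.6% in the highest. With the other list moved by 100 kb the same groups gave 0.889% to 2.295%. In percentage points this background changed far less with width than the sharing did. In proportion, the RXR background climbed about as much as RXR sharing. In C1 this background went from 0.889% to 1.504% and RXR sharing from 18.9% to 32.8%. In C4 they went from 1.018% to 1.889% and from 19.1% to 36.3%. CEBPa sharing climbed more than its background in proportion too, in C1 from 14.5% to 43.5% against 1.001% to 1.537%.

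Distances between peak centres were taken over all peaks, overlapping ones included. From RXR peaks, the median distance to the nearest CEBPa peak of the same liver was 5233 bp in C1, 3187.5 bp in C2, 3795 bp in C3 and 4277.75 bp in C4. From CEBPa peaks, the median distance to the nearest RXR peak was 6637, 6144.5, 10147.5 and 3436.5 bp. CEBPa peaks lay farther from RXR than RXR peaks from CEBPa in C1, C2 and C3, and nearer in C4. The mean difference was -2468 bp and missed the threshold (exact permutation, two-sided p = 0.114, adjusted p = 0.152; within livers, exact p = 0.25). With the other factor moved by 100 kb the medians were 16808.5 to 22586.5 bp from RXR and 21396.8 to 29387.5 bp from CEBPa.

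**Figure D4:**
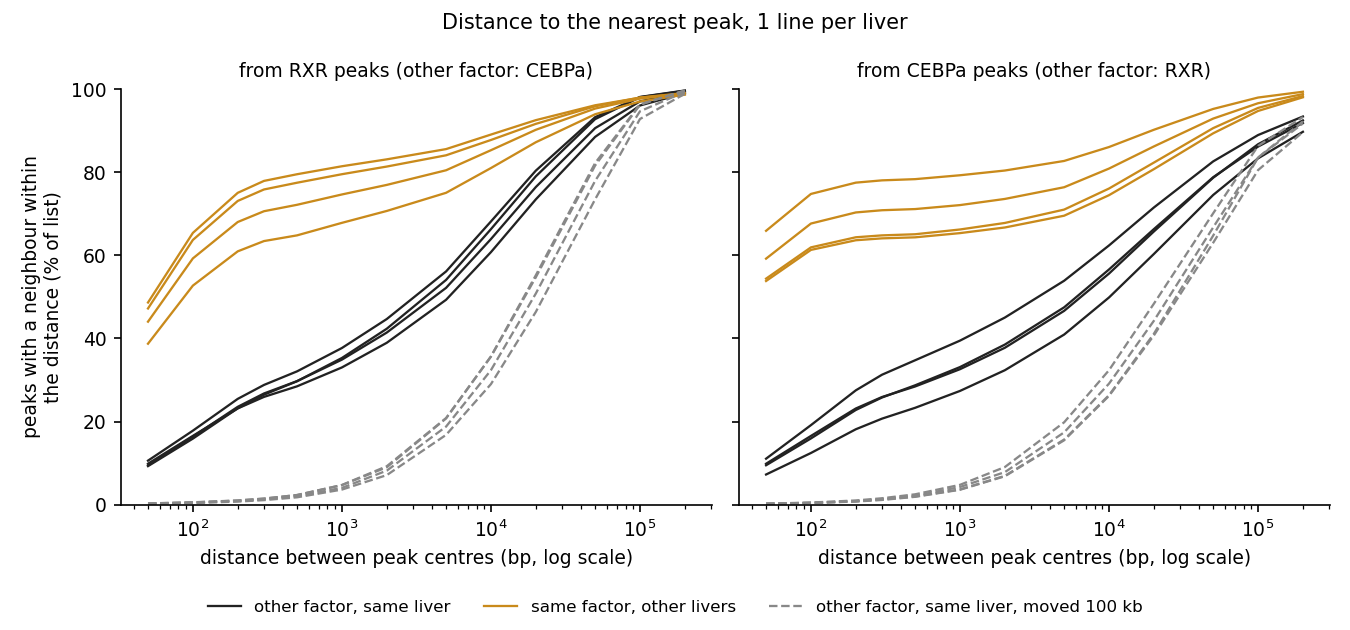
Share of peaks (%) with a neighbour within a given distance between centres (bp, log scale), from RXR peaks (left) and from CEBPa peaks (right), 1 line per liver. Solid dark lines are the other factor in the same liver, light lines the same factor averaged over the 3 other livers, and dashed lines the other factor moved by 100 kb; at 10 kb the dark lines reach 60.8% to 68.1% from RXR and 49.8% to 62.4% from CEBPa.

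Both factors were closer to each other than to a moved list at every distance up to 10 kb. Within 10 kb of an RXR peak centre lay a CEBPa peak for 60.8% of peaks in C1, 68.1% in C2, 66.3% in C3 and 63.9% in C4, against 29.0% to 35.7% with CEBPa moved by 100 kb. From CEBPa peaks the shares were 55.6%, 56.6%, 49.8% and 62.4%, against 26.2% to 32.3%. Peaks of the same factor in another liver were nearer still, at a median of 50.5 to 108 bp for RXR and 27 to 52.5 bp for CEBPa.

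Few peaks lay side by side without touching. Centres within 500 bp with no overlap were found for 1.81% to 2.34% of RXR peaks and 1.77% to 1.99% of CEBPa peaks, against 0.666% to 0.796% and 0.687% to 0.802% with moved lists. Between 1 and 5 kb the shares were 17.7% of RXR peaks on average and 15.01% with the moved list, so most of the closeness came from overlap and from distances under 1 kb. Far from the other factor, more than 50 kb away, lay 6.78% to 11.5% of RXR peaks and 17.4% to 25.5% of CEBPa peaks. With moved lists it was 17.8% to 26.5% and 29.9% to 37.0%, so CEBPa had the larger share in this background too. For peaks that did not overlap the other factor, the median distance was 8390.5 to 11580.5 bp from RXR and 13779.8 to 20638 bp from CEBPa. With moved lists it was 17286 to 23032.5 bp and 22196 to 30082.5 bp, longer from CEBPa as well.

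Where the factors did overlap, their peaks were not centred on one another as closely as peaks of a single factor. The distance between the centres of an overlapping RXR and CEBPa peak of one liver had a median of 73.5 bp in C1, 78 bp in C2, 82 bp in C3 and 80 bp in C4. For 2 RXR lists it was 35 to 38 bp, and for 2 CEBPa lists 19.5 to 20.5 bp. Only 33.2% to 36.8% of the mixed pairs had centres under 50 bp apart, against 59.3% to 62.4% for RXR pairs and 82.9% to 84.2% for CEBPa pairs. The mixed pairs had centres over 150 bp apart in 22.1% to 26.3% of cases. RXR had the wider peak in 58.0% to 64.5% of mixed pairs, by a median of 29 to 54 bp. Since the lists give no summits, centres stand in for the point of strongest signal, and wide or uneven peaks make that less exact, the more so for RXR.

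Shared peaks recurred in the other vehicle livers more often than unshared peaks. In the RXR lists, 75.6%, 65.8%, 74.3% and 59.6% of shared peaks of C1 to C4 had an RXR peak in all 3 other livers, against 63.1%, 50.6%, 57.6% and 43.3% of unshared peaks. In the CEBPa lists it was 82.3%, 69.97%, 74.7% and 71.5% of shared and 59.8%, 41.1%, 40.8% and 47.7% of unshared peaks. The order held in all 8 lists and also among the wider and among the narrower peaks of each list taken alone. In the CEBPa list of C3, for example, 87.6% of shared and 67.9% of unshared peaks recurred among the wider ones, and 42.8% and 19.3% among the narrower ones.

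Whether the regions kept to their factor was then read from lists that had no part in choosing them. In the TCPOBOP livers D1 to D4 at 27 h, RXR was called at 93.0%, 91.4%, 82.7% and 91.2% of RXR-specific regions. The same RXR lists had a peak at 7.25%, 3.93%, 1.73% and 4.07% of CEBPa-specific regions. CEBPa was called at 89.6%, 89.8%, 90.2% and 78.2% of CEBPa-specific regions in D1 to D4 and at 1.73%, 1.59%, 1.64% and 0.674% of RXR-specific regions. Each of these last values lay below its own background, 1.30% to 1.77% with the regions moved by 100 kb. RXR at CEBPa-specific regions lay above its background of 1.08% to 1.52%. The rule asked for no call of the other factor in the livers that chose the regions, and the moved regions had no such filter. A low rate beside this background is thus partly built in. The lowest rates belonged to the shortest lists, 22619 RXR peaks in D3 and 20396 CEBPa peaks in D4.

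The test was made on the call rate at RXR-specific minus that at CEBPa-specific regions. It was 85.3 ± 3.01 percentage points in RXR lists and -85.5 ± 5.38 in CEBPa lists of D1 to D4 (SD, n = 4 each). These contrasts differed by 170.9 points on average, in the same direction in 4 of 4 livers, with an exact permutation p of 0.0286 (two-sided), the smallest possible, and an adjusted p of 0.0762. Within livers the exact p was 0.125, again the smallest possible. Constant shared regions were called in D1 to D4 at 87.8% to 98.1% by RXR and at 89.9% to 96.1% by CEBPa.

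**Figure D5:**
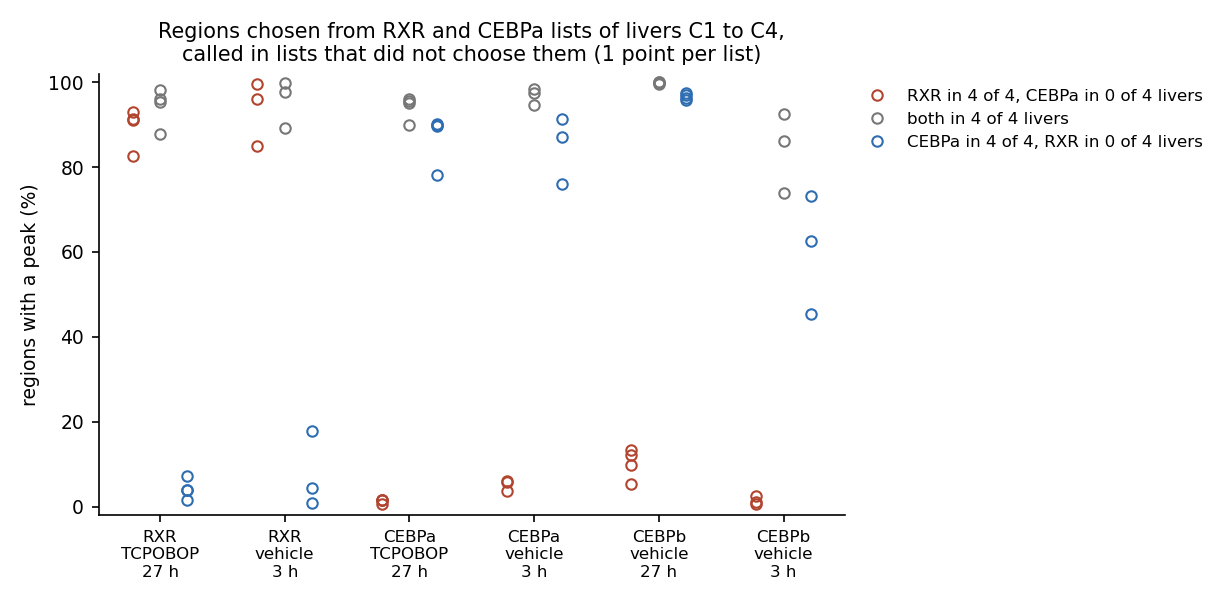
Share of regions (%) with a peak in lists that were not used to choose them, 1 open point per list of TCPOBOP livers at 27 h and vehicle livers at 3 h, and of CEBPb in vehicle livers, for RXR-specific, constant shared and CEBPa-specific regions of livers C1 to C4. The RXR lists plotted lie at 82.7% to 99.5% on RXR-specific and at 0.966% to 17.97% on CEBPa-specific regions, and the CEBPa lists plotted at 0.674% to 6.20% on RXR-specific and at 76.0% to 91.2% on CEBPa-specific regions.

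Vehicle livers collected at 3 h gave the same order. RXR came from livers A1, A3 and A4 of mice labelled as 8 weeks old, run on lane 8 with the libraries of 27 h. CEBPa came from A44, A45 and A46, mice labelled as 7 weeks old whose libraries were run on another flow cell. RXR was called at 99.5%, 85.0% and 95.9% of RXR-specific and at 17.97%, 0.966% and 4.33% of CEBPa-specific regions. CEBPa was called at 91.2%, 87.1% and 76.0% of CEBPa-specific and at 5.78%, 6.20% and 3.75% of RXR-specific regions. With the RXR-specific regions moved by 100 kb, the CEBPa rates were 2.231%, 2.127% and 1.618%. CEBPa at RXR-specific regions thus lay above background at 3 h, whereas it lay below background in D1 to D4. The regions were chosen for no CEBPa call in 27 h lists that shared a lane with D1 to D4. The part of this choice in the order was not tested. RXR at CEBPa-specific regions lay above its background in A1 (2.567%) and A4 (1.625%) and below it in A3 (1.095%). The RXR list of A1, with 52727 peaks, gave the highest rates at both kinds. The contrast was 85.7 ± 5.24 points in RXR lists and -79.5 ± 6.68 in CEBPa lists (SD, n = 3 each), a difference of 165.2 points with an exact permutation p of 0.1 (two-sided), the smallest that 3 lists against 3 allow, and an adjusted p of 0.152.

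Over all other lists of both times and treatments, many regions kept to one factor without exception. Of 9639 RXR-specific regions, 6492 (67.4%) had an RXR peak in all 10 other RXR lists, and 7901 (82.0%) had no CEBPa peak in any of the 10 other CEBPa lists. Of 8491 CEBPa-specific regions, 4391 (51.7%) had a CEBPa peak in all 10 other CEBPa lists, and 6074 (71.5%) had no RXR peak in any of the 10 other RXR lists. Long lists such as that of A1 lower the last share, since 1 peak in 10 lists is enough to leave it.

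CEBPb, measured in the same 4 livers, followed CEBPa. It was called at 97.1%, 97.4%, 95.7% and 96.3% of CEBPa-specific regions in C1 to C4. At RXR-specific regions it was called at 9.87%, 12.3%, 5.29% and 13.4%, against 2.37% to 2.90% with the regions moved by 100 kb. The values of the 2 kinds of region lay far apart in every liver, and the rate at RXR-specific regions was low but above its background in all 4. The means were 10.2% ± 3.59 and 96.6% ± 0.743 (SD, n = 4), a difference of -86.4 percentage points (exact permutation, two-sided p = 0.0286, adjusted p = 0.0762; within livers, exact p = 0.125). At constant shared regions CEBPb was called at 99.4% to 99.96%. The shorter CEBPb lists of 3 h vehicle livers, with 11899 to 22746 peaks, had 45.3% to 73.2% of CEBPa-specific and 0.560% to 2.61% of RXR-specific regions. At RXR-specific regions, A44 (1.08% against 1.26% with the regions moved) and A45 (0.560% against 0.799%) lay below background. A46 lay above it, with 2.61% against 1.43%. The CEBPb libraries shared lane 7 with the CEBPa libraries, and the part of the lane in this likeness was not tested.

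The CEBPb rate climbed with the number of livers that had CEBPa. At regions without RXR it was 25.6% with CEBPa in 1 liver, 56.3% in 2, 80.5% in 3 and 96.6% in 4, as means over the 4 CEBPb lists. At regions without CEBPa it was 3.95% with RXR in 1 liver, 6.38% in 2, 7.86% in 3 and 10.2% in 4. Median region widths climbed as well. They went from 213 to 345 bp for CEBPa without RXR and from 225 to 491 bp for RXR without CEBPa. A wider region is overlapped more easily, and the part of width in these climbs was not tested. At the level of single peaks, 9.13% to 17.0% of unshared RXR peaks had a CEBPb peak in the same liver, against 93.1% to 97.3% of shared RXR peaks. Of unshared CEBPa peaks, 68.1% to 82.9% had one.

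The named regions are the 6 of each kind with the widest peaks, taken by the mean width percentile within their lists. Among RXR-specific regions, the first lay at chr10:79576980-79578288, with RXR peaks of 1199, 1229, 1268 and 1309 bp in C1 to C4. RXR was called there in all 10 other RXR lists and CEBPa in none, while CEBPb had a peak in 2 of the vehicle and 1 of the TCPOBOP livers of 27 h. At chr4:140213325-140214580 the RXR peaks were 1214 to 1244 bp wide, in all 14 RXR lists of the series, and no CEBP list had a peak. The same held at chr10:18564028-18565448, where the RXR peak was 916 bp wide in C1 and 1195 to 1359 bp in the other livers. The region chr17:5491465-5492816 had RXR peaks of 1105 to 1330 bp, with 1 CEBPa and 1 CEBPb call in vehicle livers of 3 h. At chr11:23670558-23671792 an input control of a 3 h vehicle liver also had a peak, and CEBPb was called in 1 TCPOBOP liver of 27 h. The region chr2:103847990-103849389, 5th by rank, had RXR peaks of 989 to 1400 bp and CEBPb in 2 vehicle and 1 TCPOBOP liver of 27 h.

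Among CEBPa-specific regions, the 3 with the widest peaks behaved unlike the rest. At chr14:41935848-41937586 the CEBPa peaks were 1624, 1663, 1529 and 1739 bp wide, at chr15:3229131-3230463 they were 1284 to 1330 bp and at chr3:82834796-82836073 they were 1155 to 1252 bp. CEBPa and CEBPb had peaks at each of them in all 16 CEBP lists of 27 h, while none of the 12 CEBP lists of 3 h and no RXR or input list had one. Whether these peaks mark binding to chromatin was not tested. The next 3 were called at both times. At chr5:32164823-32165772 CEBPa peaks of 883 to 938 bp were found in all 10 other CEBPa lists and CEBPb in all 14 of its lists, with no RXR peak in the series. At chr6:47331512-47332413 the CEBPa peaks were 862 to 890 bp wide, and RXR was called in 2 TCPOBOP livers of 3 h. At chr16:22898895-22899761, with CEBPa peaks of 767 to 865 bp, CEBPb had peaks in all 8 of the 27 h livers, in 2 TCPOBOP livers of 3 h and in no vehicle liver of 3 h.

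The first constant shared region, chr16:44060762-44061927, had RXR peaks of 1126, 1159, 1075 and 1142 bp and CEBPa peaks of 736, 790, 857 and 753 bp in C1 to C4, and all 42 lists of the 3 factors had a peak there. Here, at chr15:60825049-60826248 and at chr10:111018237-111020040, the RXR peak was the wider one in every liver and every list of all 3 factors had a peak. At chr10:111018237-111020040 the RXR peaks reached 1360 to 1645 bp and the CEBPa peaks 484 to 753 bp. The regions chr2:158131540-158132801 and chr11:106836639-106837857 lacked only 1 CEBPb call, in a TCPOBOP liver of 3 h. The last, chrY:2883154-2884149, had peaks in all 4 input controls as well. Its calls are therefore not specific to immunoprecipitated chromatin.

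Input peaks touched few regions and not equally. They overlapped 209 of 9639 RXR-specific regions (2.17%), 19 of 8491 CEBPa-specific regions (0.224%) and 107 of 4679 constant shared regions (2.29%). The input list of liver A38, with 1480 peaks, alone overlapped 196, 18 and 100 regions of these kinds. Median region widths were 491, 345 and 599 bp in the same order, and the part of width in these overlaps was not tested. RXR-specific regions also lay closer together. Another RXR-specific region lay within 10 kb of 25.6% of them, whereas another CEBPa-specific region lay within 10 kb of 11.5% of CEBPa-specific regions. Constant shared regions had an RXR-specific region within 10 kb in 25.7% of cases and a CEBPa-specific one in 16.6%.

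Along the genome, stretches of one kind of region were looked for, with gaps of at most 200 kb and no region of the other kind inside or within 200 kb of either end. RXR-specific regions formed 57 such runs of at least 3 regions and CEBPa-specific regions 106. The runs held 249 (2.58%) of all RXR-specific and 405 (4.77%) of all CEBPa-specific regions. The densest stretch of the 4 longest was RXR-specific and lay at chr9:119841274-120020150, with 8 regions over 179 kb and no constant shared region inside. RXR-specific runs of 9 regions were found at chr15:89000414-89311625, over 311 kb, and at chr6:82877528-83423572, over 546 kb, each with 2 constant shared regions inside. The CEBPa-specific run of 9 regions at chr1:109456081-109888906 covered 433 kb, with 1 constant shared region inside. Counting merged regions of every kind, these runs on chromosomes 9, 15, 6 and 1 held 18, 21, 41 and 13. Over all chromosomes, RXR-specific regions made up 53.2% of the 18130 regions that were RXR-specific or CEBPa-specific. The share was 61.4% on chromosome 11 and 61.3% on chromosome 17. It was 43.7% on chromosome 3 and 42.7% on the X chromosome. These shares come with no test, since neighbouring regions are not independent.

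The differences between the factors were also set beside those in the TCPOBOP livers D1 to D4. Median widths there were 307 to 333 bp for RXR and 262 to 268 bp for CEBPa, and 24.4% to 29.1% of RXR and 22.5% to 34.9% of CEBPa peaks were shared. The difference in median width within livers was 48.25 ± 8.54 bp in vehicle and 53.75 ± 9.84 bp in TCPOBOP livers (SD, n = 4 each), and the ranges of 40 to 59 bp and 45 to 65 bp overlapped (exact permutation, two-sided p = 0.457, adjusted p = 0.643 over 5 measures). The differences in length, sharing, distance and the width gap of shared peaks had exact permutation p-values of 0.486 to 1 for vehicle against TCPOBOP livers. With 4 livers a side these tests do not show that the differences were alike.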

How the data were processed

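The values are positions of peaks. Per the submitters' processing notes, Bowtie2 2.3.2 and MACS2 were used with mm9; for MACS2, settings and version were not given in the sources. For each library the authors deposited 1 list, with chromosome, start, end and name of each peak and no score, fold, count or summit. Starts counted from 0 were raised by 1 for printing.

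From these positions, regions, overlaps of at least 1 bp, widths and distances between nearest peak centres were computed in Python 3.11.15 (pandas 2.3.3, numpy 2.4.6, scipy 1.17.1; figures with matplotlib 3.10.9). Functions were tested on simulated lists. As a background, one list was moved by 100 kb. Groups of lists were compared by exact permutation of the lists, with Benjamini-Hochberg adjustment over 8 tests. Replicate numbers pair the lists, since RXR and CEBPa lists of one number come from the same liver, so a paired exact sign-flip test over 4 livers was run as the replicate block. Pairs of RXR and CEBPa lists from the same liver had a mean Jaccard index of 0.168, and those from different livers 0.165.

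The regions, tests and lists used here were chosen with earlier results of these data known. Named regions are the 6 per kind with the highest mean width percentile outside chromosome 18, and the 4 longest runs. Depth is unknown, so no counting interval is given. Gene lists, cell type markers and motifs were not analysed here, for want of an mm9 annotation and genome. Alternatives were lists without input peaks, without the narrowest peaks, with windows of 300 bp, with more overlap, of equal length, without each liver, and with other rules for regions.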

Additional observations from a re-analysis of the deposited data

Results flagged for a closer look

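In 27 groups of 4 lists tested for a value far from the other 3, the same list stood apart 3 times, and chance gives about 1 such group in 20. It was the CEBPa list of the TCPOBOP liver D4, the shortest CEBPa list of 27 h with 20396 peaks. It had a peak at 78.2% of CEBPa-specific regions, where the other 3 lists lay at 89.6% to 90.2%. At constant shared regions it had 89.9%, against 95.2% to 96.1%. At RXR-specific regions it had 0.674%, against 1.59% to 1.73%. All 3 values come from 1 list and are not independent. The part of its length in these values was not tested. The difference of 170.9 points in the contrast between RXR and CEBPa lists of D1 to D4 was 172.9 points without D4. Over each D liver left out it lay between 169.3 and 172.9 points. With a C liver left out, which changes the regions chosen, it lay between 159.1 (without C1) and 165.0 points (without C2).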

How the results depend on the processing

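With lists of equal length, the difference in the share of overlapped peaks between RXR and CEBPa turned from 0.993 to -0.120 percentage points (widest peaks kept) or -0.0905 (even in genome order), and it ranged from -0.644 (without C3) to 2.96 when 1 liver was left out. Equal lengths make the shares nearly equal by construction. The list length difference ranged from -0.172 to 0.0212 (log2, the latter without C3). Neither was past the threshold under any setting run. The tests of peak width, of the contrast in TCPOBOP livers and of CEBPb calls kept their values of 48.25 bp, 170.9 points and -86.4 points under the replicate block, with an exact p of 0.125, the smallest that 4 pairs allow. The block changed no other call. Leaving out 1 liver gave 44.7 to 51.0 bp, 159.1 to 172.9 points and -84.5 to -83.0 points, with an exact p of 0.1, the smallest possible, wherever 3 lists faced 3. It gave 156.2 to 168.9 points for the contrast in 3 h livers, -3571 to -1173 bp for the distance and -12.2 to -9.00 bp for the width gap of shared peaks. Region counts ranged over livers left out from 10469 to 11861 (RXR-specific), 9299 to 10929 (CEBPa-specific) and 4909 to 5677 (constant shared). With 3 or more livers for one factor and at most 1 for the other there were 15482 (RXR) and 15164 (CEBPa). With 3 or more livers for both factors there were 7157. Constant shared regions by the rule of 4 of 4 livers numbered 2785 with lists cut evenly in genome order. Among the named regions, 8 values moved under an alternative and 172 did not. Chosen after seeing the data was leaving out the 142 CEBPa-specific regions without a CEBPa peak at 3 h. It left 8349, with -86.7 points for CEBPb and 171.2 for the TCPOBOP contrast. Some alternatives give no value and were not run: list length with equal lengths, windows of 300 bp or more overlap, width with the last 2, the width gap with windows, and distance with more overlap. Depth is unknown, so a region listed for one factor may hold signal of the other below the caller's threshold.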

Other observations

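The CEBPa-specific regions with the widest peaks led to a count chosen after its values were seen. At 49 of the 8491 CEBPa-specific regions, all 16 CEBP lists of 27 h (CEBPa and CEBPb, vehicle and TCPOBOP) and none of the 12 CEBP lists of 3 h had a peak. They lay on 18 chromosomes and were 198 to 2422 bp wide, and 28 were over 500 bp. Of the 17 CEBPa-specific regions over 1000 bp, 10 were among them. None had an input peak, but all inputs came from 3 h livers, so they cannot show reads particular to the 27 h libraries. Of the 49, 1 had an RXR peak in any list of the series. In all, 142 CEBPa-specific regions (1.67%) had no CEBPa peak in any of the 6 lists of 3 h, while 3 of 9639 RXR-specific regions had no RXR peak in any RXR list of 3 h. The CEBP libraries of 27 h shared 1 lane, and those of 3 h came from another flow cell and from younger mice, so time, age and run cannot be told apart for these regions. Whether their peaks mark CEBP binding to chromatin or another source of reads in that lane was not tested, which would need an annotation of mm9. An RXR peak in all 4 TCPOBOP lists of 27 h but no RXR list of 3 h was found at 0 RXR-specific regions. The same rule for CEBPa gave 55 CEBPa-specific regions. The RXR libraries of both times shared a lane. The RXR lists of 3 h held 22117 to 52727 peaks and the CEBPa lists of 3 h 24273 to 35196. The parts of the lane and of list length in these RXR and CEBPa counts were not tested.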
